A study of Danio rerio with 8 samples.

Results

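Genes of the vessel wall were followed in blood cells sorted from zebrafish embryos and in the remaining cells of the same embryos. The genes include the vascular growth factor receptors kdrl, flt1 and flt4, the angiopoietin receptor tek and its relative tie1. The others are the vascular cadherin cdh5, the sphingosine phosphate receptor s1pr1, the venous transcription factor nr2f2 and the aquaporin aqp8a.1. All were picked by gene symbol. Every probe set (the group of short probes that reads 1 transcript) with a single symbol from this list was kept. That gave 7 of the 9 genes, among the 8793 genes named on the array, with 9 of its 15617 probe sets. Both nr2f2 and s1pr1 have 2 probe sets. The annotation used here names no probe set for flt1 or cdh5, so these genes were not analysed here. Of the 9 probe sets, 7 passed the filter on dim signal and were tested, and they stand for 6 genes. The probe set of tie1 and the dimmer probe set of s1pr1 did not pass.

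The GFP-positive fraction held cells sorted for green fluorescence from cd41-GFP transgenic embryos, raised on the AB background to 35 hours post fertilization. The GFP-negative fraction held the remaining live cells of embryos of the same genotype, background and age. There were 4 arrays of each fraction, numbered as replicates 1 to 4, and a GFP-positive and a GFP-negative array of 1 number form a pair. The cd41 promoter that drives the fluorescent protein is that of the integrin gene itga2b, which marks thrombocytes and early blood stem and progenitor cells. No vessel cell was sorted as such, so a vascular transcript in the GFP-negative fraction is diluted among those of all tissues. Whether the replicates are separate clutches is not stated, and the spread behind each p-value may therefore be technical.

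Vessels of the zebrafish embryo arise from angioblasts of the lateral mesoderm that build the dorsal aorta and the cardinal vein. Growth factors of the VEGF family drive this through receptor tyrosine kinases, of which Kdrl acts in all endothelium and more strongly in arteries, Flt1 binds and limits the ligand in arteries, and Flt4 acts in veins and lymphatic vessels. Tie1 and Tek are kinases that control vessel stability, Cdh5 joins endothelial cells, S1pr1 is a G protein-coupled receptor that restrains sprouting, and Nr2f2 is an orphan nuclear receptor of venous endothelium that is also active in mesenchyme and the nervous system. In the same period the first blood stem cells leave the floor of the dorsal aorta, so an endothelial and a blood programme lie close together in the embryo.

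The arrays had trimmed means of 1500.3 to 1500.5, a likeness that comes from array scaling and is no check of the other signals. Medians ran from 274.9 to 420.6 and 40th percentiles from 168.1 to 283.3. Over all 9801 tested probe sets, 18.4% were called lower and 13.0% higher in the GFP-positive fraction, by limma at an adjusted p of 0.05. A signal under the 40th percentile of its array is called dim here. The gate gene itga2b was dim on all 8 arrays, at 34.3 to 144 on GFP-positive and 15.6 to 143 on GFP-negative arrays, so it does not check the labels. Marker genes of other cells separated the fractions. All 11 tested myeloid markers rose, with summed signals of 227684 to 433537 on GFP-positive and 20882 to 51988 on GFP-negative arrays. All 11 muscle markers fell (2062 to 11595 against 61117 to 147501), as did all 13 neural markers (2583 to 34485 against 76774 to 101895) and all 8 markers of mesenchyme and matrix (1888 to 6671 against 20319 to 25251). Of 8 erythroid markers 5 fell, but the erythroid sums overlapped between fractions (236157 to 284767 against 147380 to 271800). By pair, the GFP-positive erythroid sum was 92.3% to 189% of the GFP-negative one. The largest parts of these sums were the globin genes hbae3 and hbbe3, neither of which was called. Their means were 128438 and 102972 on GFP-positive and 80823 and 86694 on GFP-negative arrays. The sums therefore say little of the 5 markers that fell. Both tested pronephric markers fell (581 to 2461 against 3057 to 5917). No marker was listed at 0. As the filter asks for 4 of 8 arrays above the 40th percentile, bright signal in 1 fraction was enough to pass. The markers mylz3, neurog1, neurod4, prrx1a and prrx1b were dim on all GFP-positive arrays, and mmp9 on all GFP-negative arrays. For such markers the filter favoured the direction found. The GFP-positive array of replicate 3 stood apart, with muscle markers at 19.0% and neural markers at 42.3% of the paired GFP-negative sum, against 1.88% to 3.07% and 2.58% to 14.3% in the other pairs. The 3' to 5' signal ratio of GAPDH, a sign of shortened RNA, had a median of 66.1 on GFP-positive and 22.1 on GFP-negative arrays. All 4 pairs had the larger ratio in the GFP-positive fraction. The part of these differences in the results below was not tested, and fewer cells of a type and less RNA per cell cannot be told apart in sorted bulk samples.

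Most of the vascular probe sets that could be tested were lower in the GFP-positive fraction. Of 7 tested probe sets 5 fell, namely kdrl, the brighter s1pr1 probe set, both of nr2f2 and aqp8a.1, which are 4 of the 6 tested genes. None rose, by limma's adjusted p or at an unadjusted p of 0.05 (at that p, 0 higher and 5 lower). Among all tested probe sets 18.4% were called lower by adjusted p. The share of them at an unadjusted p of 0.05 was not counted. The log2 differences of the 5 ran from -3.39 to -1.90, and those of flt4 and tek did not pass. In 3 of the 7 all GFP-positive arrays lay below all GFP-negative arrays, as in 19.9% of all tested probe sets. The filter let a probe set pass on the bright signals of 1 fraction. The dimmer nr2f2 probe set passed with 4 GFP-negative arrays and 1 GFP-positive array above the 40th percentile. The probe sets that failed the filter, of tie1 and the dimmer one of s1pr1, are not in these counts.

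**Figure D1:**
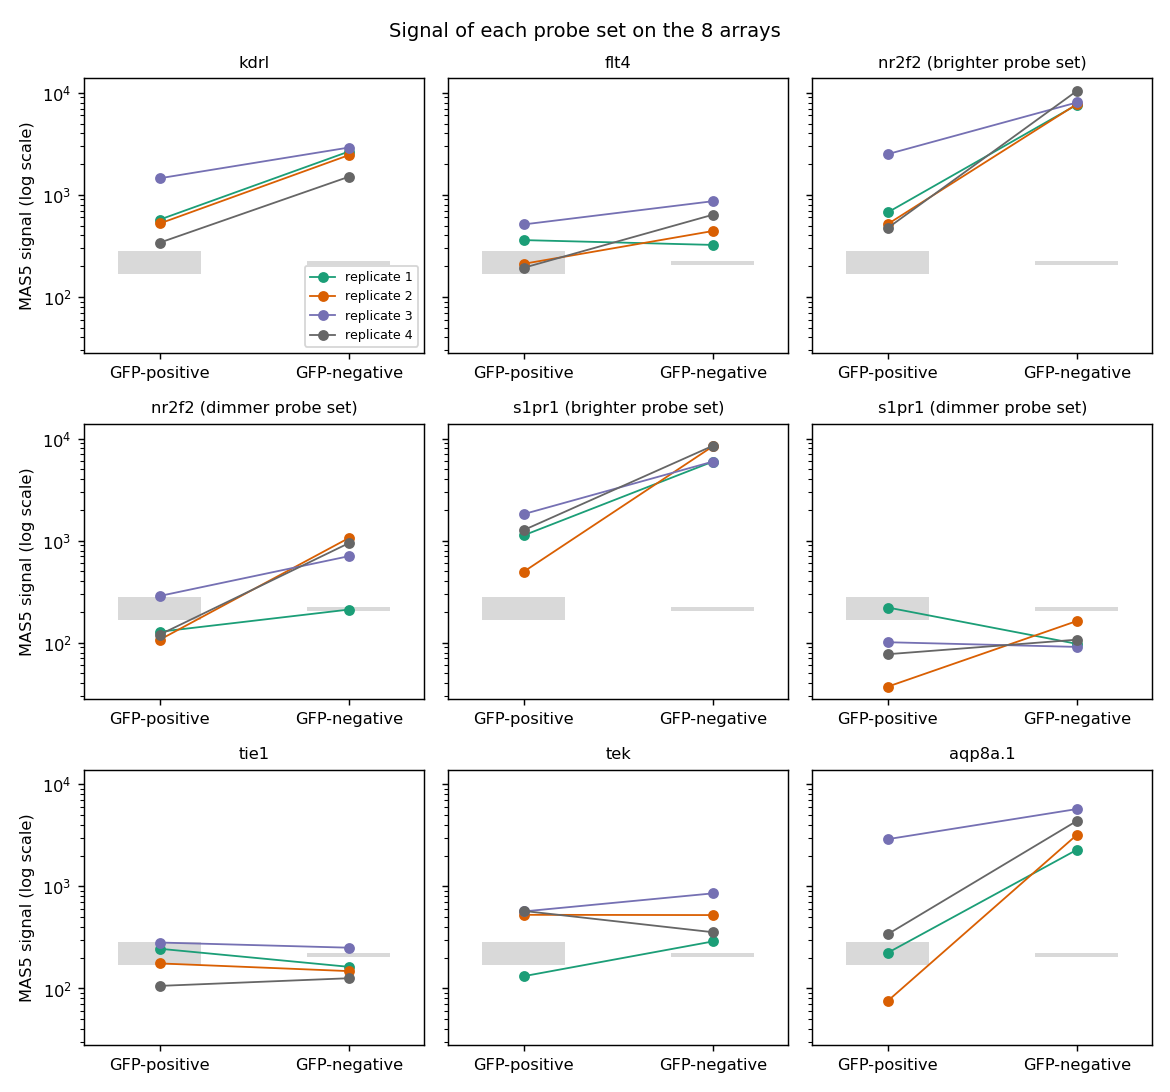
MAS5 signal (log axis) of the 9 probe sets on the GFP-positive (left) and GFP-negative (right) arrays, with a line joining the arrays of 1 replicate. Grey bars span the 40th percentiles of the arrays of that fraction. The kdrl, brighter s1pr1 and brighter nr2f2 signals do not overlap between fractions, while tie1 and the dimmer s1pr1 probe set lie in or below the grey bars, or just above them.

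The arterial-enriched receptor gene kdrl had signals of 572, 524, 1454 and 340 on the GFP-positive arrays of replicates 1 to 4, against 2656, 2449, 2906 and 1503 on the GFP-negative arrays. The fractions did not overlap, and the highest GFP-positive value, that of replicate 3, came close to the lowest GFP-negative value, that of replicate 4. The mean was 723 ± 498 on GFP-positive and 2379 ± 613 on GFP-negative arrays (SD, n = 4 each). kdrl was 3.72-fold lower, a log2 difference of -1.90 (SE 0.32, 95% interval -2.64 to -1.15, limma adjusted p = 0.0073). The GFP-positive signal was 21.5%, 21.4% and 22.6% of the paired GFP-negative signal in pairs 1, 2 and 4 and 50.1% in pair 3. Without replicate 3 the difference was -2.20. The kdrl signal was above the 40th percentile on all 4 GFP-positive arrays, which is a rank on the array and no call of detection. On these arrays 53.5% to 74.3% of probe sets were dimmer, while on GFP-negative arrays 73.5% to 83.3% were. With no probe set for flt1, kdrl is the only arterial receptor of the group with a value.

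The venous receptor gene flt4 had a smaller fitted difference than kdrl. Its signals were 360, 211, 513 and 193 on the GFP-positive arrays of replicates 1 to 4, against 323, 442, 866 and 638 on the GFP-negative arrays. The fractions overlapped, and flt4 was lower in 3 of 4 pairs and slightly higher in pair 1. The log2 difference was -0.85 (SE 0.38), with an interval of -1.75 to 0.06 and an adjusted p of 0.13 by limma. The fitted value of kdrl (-1.90) lies just outside this interval, but the kdrl interval of -2.64 to -1.15 overlaps it. No difference between flt4 and kdrl was tested. Without replicate 1 the difference was -1.18 and passed the test (limma adjusted p = 0.039). The signal of flt4 was above the 40th percentile on all 8 arrays and brighter than 42.5% to 64.1% of probe sets.

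The venous transcription factor gene nr2f2 was lower by both of its probe sets. The brighter one, designed on the reference mRNA per the platform annotation, had signals of 674, 518, 2507 and 474 on the GFP-positive arrays of replicates 1 to 4, against 7631, 7737, 8036 and 10428 on the GFP-negative arrays. The fractions did not overlap, and within the GFP-positive fraction replicate 3 was 3.72 times the next highest array. The mean was 1043 ± 979 on GFP-positive and 8458 ± 1325 on GFP-negative arrays (SD, n = 4 each). nr2f2 was 10.4-fold lower, by a log2 difference of -3.39 (SE 0.47, interval -4.49 to -2.28, limma adjusted p = 0.0043), or -3.95 without replicate 3. Of all tested probe sets 2.88% had a lower difference.

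The dimmer nr2f2 probe set, designed on an expressed sequence tag, had signals of 128, 107, 287 and 120 on the GFP-positive arrays, against 211, 1060, 704 and 944 on the GFP-negative arrays. All pairs were lower, but the fractions overlapped because GFP-positive replicate 3 exceeded GFP-negative replicate 1. The log2 difference was -2.08 (SE 0.51, interval -3.30 to -0.86, limma adjusted p = 0.024), a call lost without replicate 2 (adjusted p = 0.099) or replicate 4 (adjusted p = 0.098). Only 1 of 4 GFP-positive arrays lay above the 40th percentile. With dim signals raised to that percentile the probe set was 2.83-fold lower, against 4.21-fold as deposited (limma adjusted p = 0.047).

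By the brighter nr2f2 probe set the 2 venous genes stood on either side of kdrl, with log2 differences of -3.39 for nr2f2 and -0.85 for flt4. The dimmer nr2f2 probe set, at -2.08, was 4.21-fold lower, near the 3.72-fold of kdrl. With dim signals raised to the 40th percentile it was 2.83-fold lower, a smaller fall than that of kdrl. The place of nr2f2 beside kdrl thus depended on the probe set and on dim signals, and no difference from kdrl was tested. On the GFP-positive array of replicate 3, where nr2f2 was highest, the neural and muscle sums were highest too (34485 and 11595), and the part of those tissues in the nr2f2 difference was not tested.

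**Figure D2:**
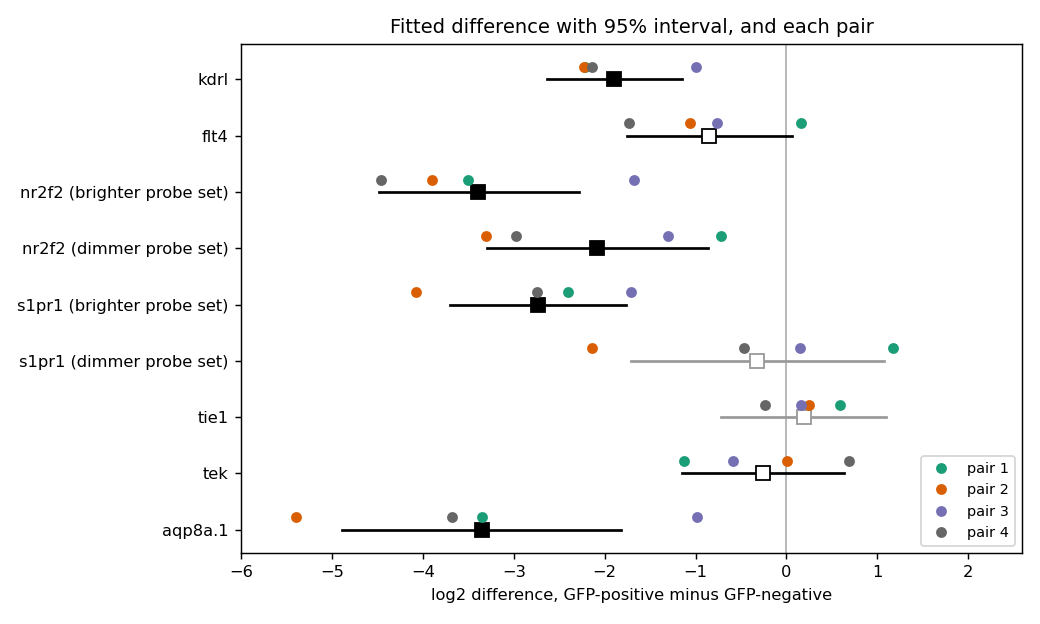
Fitted log2 difference, GFP-positive minus GFP-negative, of each probe set (square) with its 95% interval (line), and the 4 pairs (coloured points, set slightly above the line). Filled squares passed limma's test at an adjusted p of 0.05, open black squares did not, and grey ones failed the filter and come from a fit with no filter. The pair 3 point is the one nearest 0 for kdrl, the brighter nr2f2 and s1pr1 probe sets and aqp8a.1.

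Of the genes active in the whole endothelium, s1pr1 gave values that depended on the probe set. The brighter s1pr1 probe set had signals of 1128, 497, 1821 and 1270 on the GFP-positive arrays of replicates 1 to 4, against 5945, 8399, 5947 and 8498 on the GFP-negative arrays. The fractions did not overlap, and GFP-positive replicate 2 was the lowest of all arrays. It was 6.64-fold lower, by a log2 difference of -2.73 (SE 0.41, interval -3.70 to -1.76, limma adjusted p = 0.0053), and -3.07 without replicate 3. This probe set was designed on an expressed sequence tag. On GFP-negative arrays it was brighter than 91.5% to 94.5% of probe sets, and the part of cells outside vessels in its fall was not tested. The dimmer one, designed on the reference mRNA, had signals of 221, 37.1, 101 and 77.1 on the GFP-positive arrays, against 97.4, 163, 90.9 and 107 on the GFP-negative arrays. All 8 values lay below the 40th percentile, and 2 pairs went each way. In a fit with no filter its log2 difference was -0.32 with an interval of -1.71 to 1.07 (limma adjusted p = 0.74), so the 2 probe sets named s1pr1 disagree and the fall rests on 1 of them.

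Neither the angiopoietin receptor gene tek nor its relative tie1 separated the fractions, and tie1 was too dim to be tested. For tek the signals were 132, 527, 569 and 575 on the GFP-positive arrays, against 289, 524, 855 and 356 on the GFP-negative arrays. The fractions overlapped, 2 pairs were lower and 2 higher, and GFP-positive replicate 1 was far below the other 3. The log2 difference of tek was -0.26 (SE 0.38, interval -1.15 to 0.64, limma adjusted p = 0.63), and 0.04 without replicate 1. The fitted values of kdrl (-1.90), the brighter s1pr1 probe set (-2.73) and both nr2f2 probe sets (-3.39 and -2.08) lie below that interval. The dimmer s1pr1 probe set (-0.32) lies within it. The intervals of kdrl and of the dimmer nr2f2 probe set reach up to -1.15 and -0.86, and no difference between genes was tested. For tie1 the signals were 245, 176, 282 and 106 on the GFP-positive arrays, against 163, 148, 251 and 126 on the GFP-negative arrays. Only 3 of these 8 values exceeded the 40th percentile, so tie1 was not tested. In the fit with no filter its log2 difference was 0.19 (interval -0.72 to 1.1, limma adjusted p = 0.77).

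The aquaporin gene aqp8a.1, which encodes a water channel of endothelial cells, had the most uneven values. Its signals were 224, 75.7, 2906 and 341 on the GFP-positive arrays of replicates 1 to 4, against 2287, 3202, 5733 and 4386 on the GFP-negative arrays. Every pair was lower, but the fractions overlapped, since GFP-positive replicate 3 exceeded GFP-negative replicate 1 and was 8.51 times the next highest GFP-positive array. The log2 difference was -3.35 (SE 0.65, interval -4.89 to -1.82, limma adjusted p = 0.011), a 10.2-fold fall. It was -4.15 without replicate 3 and -2.67 without replicate 2, and passed the test in both cases. These folds compare means of log2 signal. On the linear scale the mean was 887 ± 1350 on GFP-positive and 3902 ± 1493 on GFP-negative arrays (SD, n = 4 each). As 2 of 4 GFP-positive arrays were below the 40th percentile, the value is not exact, and raising them to it gave a log2 difference of -2.98.

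Vascular signal in the GFP-positive fraction was highest in replicate 3 for 7 of the 9 probe sets. The exceptions were tek and the dimmer s1pr1 probe set. The 7 include tie1, which was not tested. The share of all probe sets highest in replicate 3 was not counted, so the pattern is not shown to be particular to these genes. Median signals of GFP-positive replicates 1 to 4 were 420.6, 274.9, 384.7 and 276.9. In pair 3 the GFP-positive signal was 50.7% of the GFP-negative one for aqp8a.1, 50.1% for kdrl, 31.2% for the brighter nr2f2 and 30.6% for the brighter s1pr1 probe set. In the other pairs these were 2.36% to 9.81% for aqp8a.1, 21.4% to 22.6% for kdrl, 4.55% to 8.83% for nr2f2 and 5.92% to 19.0% for s1pr1. The remaining probe sets had their highest percent in another pair. In pair 1 it was 60.7% for the dimmer nr2f2 probe set, 111% for flt4, 151% for tie1 and 227% for the dimmer s1pr1 one. Their pair 3 values were 40.8%, 59.2%, 112% and 111%. For tek it was 161% in pair 4, against 66.5% in pair 3. Mesenchyme and matrix markers gave 31.3% in pair 3 and 9.29% to 13.6% in the others. Pronephric markers gave 31.1% in pair 3 and their highest value, 61.0%, in pair 1. Each of the 5 calls held without pair 3.

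**Figure D3:**
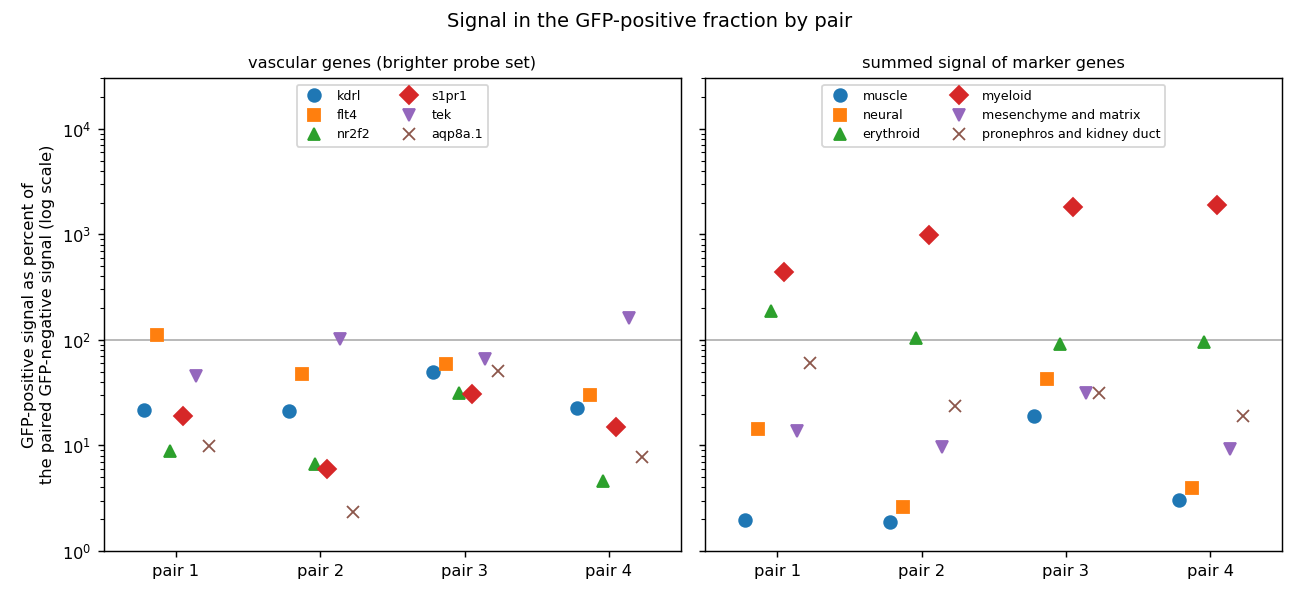
GFP-positive signal as a percent of the paired GFP-negative signal (log axis) in each of the 4 pairs, for 6 vascular genes (left, brighter probe set) and for the summed signal of 6 marker lists (right). The grey line is 100%. In pair 3 kdrl, nr2f2, s1pr1 and aqp8a.1 reach 30.6% to 50.7%, and the muscle and neural sums reach 19.0% and 42.3%.

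Over the 8 arrays, the likeness of patterns was measured as the root mean square difference of log2 signal after each probe set was centred on its own mean. Of the tested probe sets with other symbols, the one nearest flt4 was dab2, an endocytic adaptor gene, at 0.18, followed by the serine synthesis gene phgdh (0.27) and gpn1 (0.27). Nearest to kdrl were ftr82 (0.25), rcc1l (0.29) and the sodium pump subunit gene atp1b3b (0.29). The brighter nr2f2 probe set was nearest to marcksa (0.16), the splicing factor gene ptbp2b (0.22) and hoxa3a (0.24), and the dimmer one to skib (0.24), the sialyltransferase gene st8sia2 (0.35) and cadm3 (0.35). For the brighter s1pr1 probe set they were the amino acid transporter gene slc38a4 (0.28), sh3rf1 (0.35) and tspan6 (0.39). The pattern of tek was nearest to mrps5 (0.18), psme3ip1 (0.21) and eef1db (0.21), and that of aqp8a.1 to the apolipoprotein gene apoc1 (0.47), pax2a (0.54) and foxa1 (0.55). Among the vascular genes themselves the closest were the brighter nr2f2 and s1pr1 probe sets, at 0.63, and the farthest were aqp8a.1 and tek, at 2.07, so no member was among the 3 nearest of another. These are descriptions over 8 arrays that share their scaling and their 2 fractions.

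Most measured relatives of nr2f2 fell too. In the list of other nuclear receptors of the NR2 family 5 of 7 tested genes fell and 0 rose, by limma, with a median log2 difference of -3.51, against a median of -0.22 and 18.4% called lower over all 6541 tested genes. At an unadjusted p of 0.05 the counts were also 5 lower and 0 higher. The closest relatives, nr2f1a, nr2f1b and nr2f5, had log2 differences of -3.65 (SE 0.62, adjusted p = 0.0076), -4.09 (SE 0.69, adjusted p = 0.0074) and -3.51 (SE 0.48, adjusted p = 0.0043). The mean signal of nr2f1a was 1141 ± 1033 on GFP-positive and 9958 ± 1947 on GFP-negative arrays (SD, n = 4 each). nr2f6b fell by 3.58 (adjusted p = 0.0051) and nr2e1 by 3.07 (adjusted p = 0.027), while nr2f6a (-0.53) and nr2c2 (0.61) did not pass. Of these nr2f1b was above the 40th percentile on 1 of 4 GFP-positive arrays, nr2e1 on 2 and nr2f6b on 3, so their values are not exact. With dim signals raised to the percentile the log2 difference was -2.77 for nr2f1b, -2.28 for nr2e1 and -3.48 for nr2f6b. The genes nr2f1a and nr2e1 are known from the developing brain and eye, and all 13 neural markers fell as well. The part of neural cells in these falls was not tested.

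Arterial genes other than the receptors fell in 4 of 8 tested cases and rose in 0, with a median of -1.59 (6 lower and 0 higher at an unadjusted p of 0.05). Over all tested genes 18.4% were called lower and 12.8% higher by adjusted p, and shares at an unadjusted p were not counted. The 4 that fell include the Notch receptor gene notch3 (-2.68, adjusted p = 0.012) and the Notch ligand gene dlc (-1.88, adjusted p = 0.018). The others are the chemokine receptor gene cxcr4a (-3.11, adjusted p = 0.024) and the Notch target gene hey1 (-2.08, adjusted p = 0.026). All 4 are also known from the nervous system or somites. Their signals were above the 40th percentile on 3, 2, 1 and 2 of 4 GFP-positive arrays, in the order given. Raising dim signals to the percentile gave -2.65 for notch3, -1.82 for dlc, -2.05 for cxcr4a and -1.61 for hey1. The count fell to 1 without replicate 2 and to 0 without replicate 4. Others were near the limit of measurement, such as the ALK1 receptor gene acvrl1, with a log2 difference of 0.81 (adjusted p = 0.17) and dim signals on every GFP-negative array. The genes efnb2a (0.40, adjusted p = 0.49) and hey2 (-1.30, adjusted p = 0.095) did not pass either. The remaining gene of the 8, vegfaa, is also counted in the VEGF list.

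In the venous and lymphatic list 2 of 5 tested genes fell and 0 rose, the 2 being nr2f1a and nr2f1b of the nr2f family (2 lower and 0 higher also at an unadjusted p of 0.05), beside 18.4% called lower over all tested genes. The vein-enriched adaptor dab2 differed by -0.84 (SE 0.37, adjusted p = 0.12), and like flt4 it passed without replicate 1 (-1.23, adjusted p = 0.020). Its mean signal was 1002 ± 414 on GFP-positive and 1773 ± 693 on GFP-negative arrays (SD, n = 4 each). The hyaluronan receptor gene lyve1a (0.78, adjusted p = 0.23) and the mannose receptor gene mrc1a (-0.10, adjusted p = 0.91) did not pass either.

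Few partners of the receptors were measurable. Of 19 genes listed for VEGF ligands, co-receptors and signalling 9 are on the array and 3 were tested. The signalling genes nck1a and plcg2 rose (12.8% of all tested genes did), by 3.37 (SE 0.32, adjusted p = 0.0014) and 3.10 (SE 0.56, adjusted p = 0.0088). The mean of nck1a was 6289 ± 4899 on GFP-positive and 510 ± 155 on GFP-negative arrays (SD, n = 4 each). Neither gene is specific to VEGF signalling, Nck1 being a general adaptor to the actin skeleton and Plcg2 a phospholipase of blood cells. All 11 myeloid markers rose too, and the part of myeloid cells in these rises was not tested. The ligand gene vegfaa did not pass (-0.89, SE 0.35, adjusted p = 0.096), though it was lower in 4 of 4 pairs. With an unadjusted p of 0.05 this list had 2 genes higher and 1 lower. For the angiopoietin pathway 1 of 8 genes was tested, the vascular phosphatase gene ptprb (-0.78, adjusted p = 0.16). For the sphingosine phosphate pathway 2 of 14 were tested, the receptor gene s1pr2 (0.70, adjusted p = 0.22) and the G protein gene gna13a (-0.26, adjusted p = 0.59). No gene of these last 2 lists was called, by limma or at an unadjusted p of 0.05 (0 in each direction).

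Among genes of vascular junctions 2 of 11 fell and 0 rose, with a median of -0.26. That share of 18.2% is close to the 18.4% of all tested genes. With an unadjusted p of 0.05, 5 were lower and 0 higher. The plasmalemma vesicle gene plvapb, a marker of fenestrated endothelium, fell by 2.18 (SE 0.37, adjusted p = 0.0077), with a mean of 732 ± 525 on GFP-positive and 2834 ± 570 on GFP-negative arrays (SD, n = 4 each). The junction adhesion gene jam3b fell by 2.73 (adjusted p = 0.0099). The claudin gene cldn5a (-1.90, adjusted p = 0.083) and beta-catenin, ctnnb1 (-1.06, adjusted p = 0.085), did not pass by their brightest probe sets, while another ctnnb1 probe set fell. The count was 4 without replicate 1.

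The list of other vascular surface genes holds 25, of which 7 are on the array and 5 were tested. Listed genes such as cd34, robo4 and emcn were not tested. Of the 5 tested 4 fell and 0 rose, with a median of -2.24 (4 lower and 0 higher at an unadjusted p of 0.05). Of all tested genes 18.4% were called lower. The cadherin gene cdh2 fell by 3.59 (adjusted p = 0.0043). Its relative cdh11, above the 40th percentile on 1 of 4 GFP-positive arrays, fell by 4.57 (adjusted p = 0.0040), and the log2 difference was -3.88 with dim signals raised. Podocalyxin, podxl, fell by 2.08 (adjusted p = 0.0077) and apln, the gene of the secreted ligand apelin, by 2.24 (adjusted p = 0.015). The signal of apln was above the 40th percentile on 2 of 4 GFP-positive arrays, and its log2 difference was -1.94 with dim signals raised. Both cadherins are abundant in neural and mesenchymal cells, and podxl is also a podocyte gene. All tested neural and mesenchymal markers fell as well, and the part of those cells in these falls was not tested.

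The list of endothelial and blood transcription factors moved both ways. Of 13 tested genes 5 fell (38.5%) and 2 rose (15.4%), with a median of -1.04. Of all tested genes 18.4% were called lower and 12.8% higher. With an unadjusted p of 0.05, 6 of the 13 were lower and 4 higher. The forkhead genes foxc1a and foxc1b, which act in mesoderm and vessels, had log2 differences of -2.64 (adjusted p = 0.0044) and -1.64 (adjusted p = 0.012), and tal1, needed for blood and vessel fate, one of -1.34 (adjusted p = 0.018). The signal of foxc1b was above the 40th percentile on 1 of 4 GFP-positive arrays, and its log2 difference was -1.22 with dim signals raised. The ETS gene fli1rs rose by 2.98 (SE 0.27, adjusted p = 0.0012). Without replicate 2, and likewise without replicate 4, the counts by adjusted p were 1 lower and 1 higher. Of 3 tested aquaporins other than aqp8a.1, the vascular and red cell gene aqp1a.1 fell by 1.58 (adjusted p = 0.014), aqp3a rose by 2.46 (adjusted p = 0.0025) and aqp12 did not pass (-0.61, adjusted p = 0.22). The fall of aqp1a.1 was lost with no replicate block (adjusted p = 0.052) and without replicate 2, 3 or 4.

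**Figure D4:**
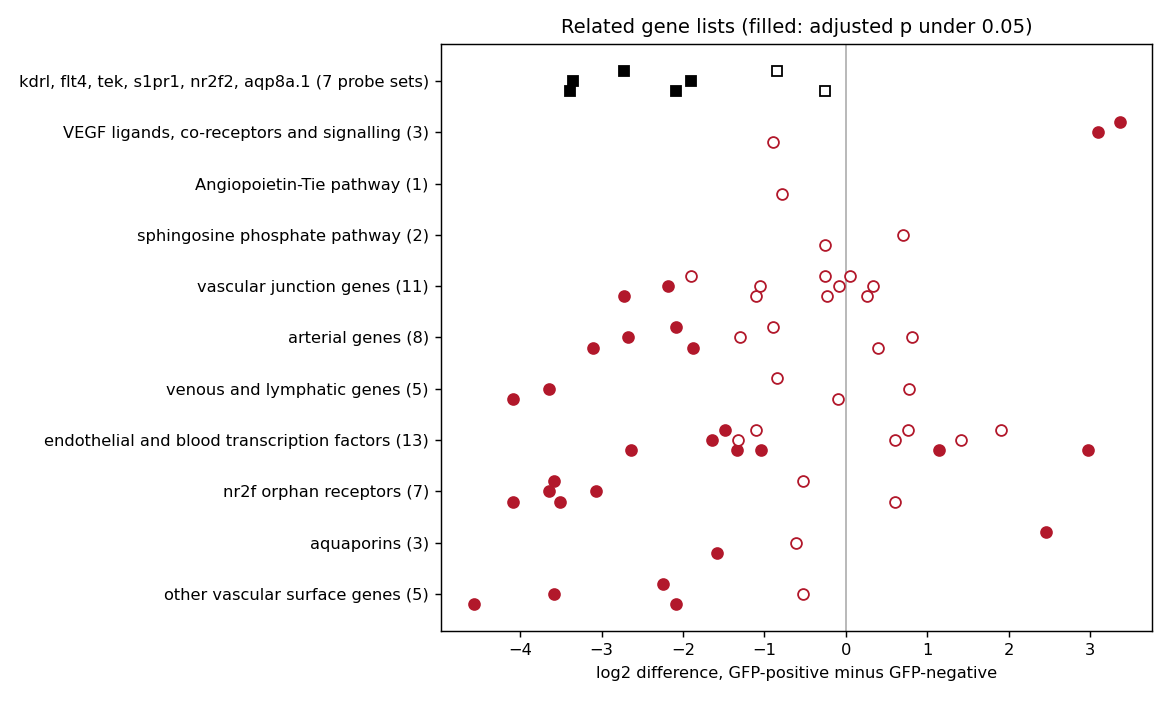
Log2 difference, GFP-positive minus GFP-negative, of the 7 tested vascular probe sets (black squares, top row) and of the tested genes of 10 related lists (red circles, 1 per gene, number tested in brackets; small vertical offsets only separate points). Filled symbols passed limma's test at an adjusted p of 0.05. Filled points of the nr2f row lie between -4.09 and -3.07, while the VEGF row holds 2 genes above 3.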

How the data were processed

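The deposited table holds 1 linear intensity per probe set and array, and these are MAS5 signals per the submitters' processing notes. RNA had 2 rounds of linear amplification, per the labels' protocols, which shortens transcripts toward the 3' end. Depth does not apply to arrays, and the number of arrays limits precision. Scanner files and genome coordinates were not used here.

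Probe sets were named by the platform annotation with symbols updated by gene identifier (10802 had 1 symbol, 135 several, 4680 none). Signals were taken to log2 with no pseudocount. A probe set was tested if it was no Affymetrix control and had 4 or more of 8 signals above the 40th percentile of the array. Differences are GFP-positive minus GFP-negative, by limma 3.58.1 in R 4.3.3 (lmFit, eBayes with a trend, two-sided), with the replicate number as a block as the design text states a pairing, and Benjamini-Hochberg adjustment over all 9801 tested probe sets. Deviations from group means correlated within pairs 1 to 4 by 0.40, 0.26, 0.18 and -0.12. Between GFP-positive and GFP-negative arrays of different numbers these correlations ran from -0.39 to 0.27. Only pair 1 exceeded all of those, so the data do not clearly show the pairing in the other pairs. The fit was tested on simulated data.

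In lists each gene stands for its tested probe set of highest mean log2 signal. Of each list the 4 genes with the smallest p were named, called or not. The genes nr2e1, nr2f6a, nr2c2, acvrl1, efnb2a, hey2, mrc1a, gata2a, lmo2, hhex, ets2 and fli1 were added after their values were seen. A fit with dim signals raised to the 40th percentile is given for each named gene called lower that was dim on some GFP-positive arrays. For other named genes with dim arrays, such as lyve1a, s1pr2 and acvrl1, mostly the deposited scale alone is given. Those values are not exact. The members, lists and tests were chosen with earlier results of these data known. The 13 alternatives covered scaling, filter, pseudocount, variance trend, block, dim arrays and each left-out pair.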

Additional observations from a re-analysis of the deposited data

Results flagged for a closer look

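A single array lay far from the other 3 of its fraction in 2 of 18 groups of 4 arrays, by Dixon's criterion on log2 signal, where chance gives about 1 in 20 groups. For tek it was GFP-positive replicate 1, with a log2 signal of 7.04 (signal 132), which also sets the sign of the tek difference. For the brighter nr2f2 probe set it was GFP-negative replicate 4, with a log2 signal of 13.35 (signal 10428). The other GFP-negative arrays lay close together, at 12.90 to 12.97. Without the whole pair 4 the log2 difference of nr2f2 was -3.03. That fit also leaves out the lowest GFP-positive array (8.89), so it does not show the effect of the flagged array alone.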

How the results depend on the processing

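The counts over all probe sets depended on which pair was left out: with 1 replicate left out 646 to 1466 were higher and 659 to 2027 lower, against 1273 and 1805 with all pairs, with the lowest counts without replicate 4 and the highest without replicate 1. With no replicate block they were 1191 and 1688, and no vascular call changed. The median difference of all tested probe sets was -0.18 on the deposited scale, 0.01 after median centring, -0.07 after quantile normalization and -0.06 after cyclic loess. Calls higher in the GFP-positive fraction made up 41.4% of calls on the deposited scale and 51.0% after median centring. Among the vascular probe sets 4 to 6 were called lower and 0 higher in the 13 alternatives, of which raising dim arrays to the 40th percentile was chosen after seeing the data. kdrl, the brighter nr2f2 and s1pr1 probe sets and aqp8a.1 kept their call in all 13, with the highest adjusted p of 0.049 for aqp8a.1 (without replicate 4). The difference of tek was 0.02 with dim arrays raised and -0.57 to 0.04 with 1 replicate left out, and that of gna13a -0.39 to 0.09. The calls lower with 1 replicate left out were 0 to 4 for arterial genes, 2 to 4 for junction genes, 1 to 5 for transcription factors (1 to 3 higher), 0 to 1 for aquaporins, 2 to 4 for erythroid and 1 to 2 for pronephric markers. The filter at the 60th percentile left 2 arterial genes, and both were called lower. Raising dim arrays gave 1 VEGF gene lower and 4 transcription factors higher. With no replicate block 0 aquaporins and 1 pronephric marker fell, 1 pronephric marker fell under quantile normalization or cyclic loess, and 1 erythroid marker rose after median centring. The cause of these changes was not tested. Dim probe sets such as tie1 limit what can be said at this signal over background.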
